A study of Mus musculus with 16 samples.

Results

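Eosinophil progenitors were followed in the c-Kit+ fraction of bone marrow from mice with and without a mammary tumor, as the cells that held at least 3 unique molecular identifiers (UMIs, 1 per captured RNA molecule) of Epx and at least 5 of Prg2. The cells were thus chosen by the measured levels of these 2 transcripts, and whatever is said of Epx and Prg2 below is a description of that choice. The gate was met by 160 of the 28155 cells kept in 6 marrow libraries, out of 73176 kept cells in all 16 libraries of the study.

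IACS-70654, an inhibitor of the bromodomain of the histone acetyltransferases CBP and P300, was given to BALB/c female mice that carried 2208L, a transplanted Trp53-null mammary tumor rich in neutrophils. Marrow cells lacking lineage markers (CD11b, Gr-1, B220, Ter119 and CD3e) and positive for CD45 and c-Kit were sorted from untreated tumor-free mice (WT), tumor-bearing mice dosed with vehicle and tumor-bearing mice dosed with IACS-70654. Vehicle and WT thus differ in the tumor, its implantation and the dosing, which cannot be told apart. The series record gives 7 days of dosing, with 3 days on and 2 days off drug. A slightly shorter course is stated for marrow elsewhere in the sources, so the exact length is in doubt. Mice were 7 to 8 weeks old at transplantation. There were 2 libraries for each of the 3 groups. Cells of 3 mice were pooled, and the sources differ on whether for each sample or for each treatment group, so the spread between libraries may be that between pools of different mice or between portions of 1 pool.

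Eosinophils arise in the marrow from granulocyte progenitors under the transcription factors GATA1, C/EBPε and PU.1, and interleukin 5, acting through the receptor encoded by Il5ra and the shared chain encoded by Csf2rb, supports their expansion and survival. Their precursors make granule proteins before the cell matures: Epx encodes eosinophil peroxidase, Prg2 the major basic protein, Prg3 its homolog, and the Ear genes the eosinophil-associated ribonucleases. Surface CCR3 and Siglec-F come up as the cells mature, while c-Kit is lost.

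The promoters of 3 granule genes and of Fcer1a are printed because the first 3 are among the 4 genes with the highest ratio to the other cells (Prg2, the remaining one, had no entry in the promoter table) and the last had no UMI in them after IACS-70654. They run from 250 bases before to 50 bases after the RefSeq start in GRCm38.p6, 5′ to 3′ on the strand of the gene, with matches in capitals to a GATA motif spelled GATAA, a C/EBP motif spelled TTNCNNAA or an ETS motif spelled GAGGAA on either strand, none of which overlapped another in these windows. Epx is at chr11:87875487-87875786 on the minus strand, Prg3 at chr2:84987965-84988264 on the plus strand, Ear6 at chr14:51853518-51853817 on the plus strand, and Fcer1a at chr1:173227180-173227479 on the minus strand.
Epx: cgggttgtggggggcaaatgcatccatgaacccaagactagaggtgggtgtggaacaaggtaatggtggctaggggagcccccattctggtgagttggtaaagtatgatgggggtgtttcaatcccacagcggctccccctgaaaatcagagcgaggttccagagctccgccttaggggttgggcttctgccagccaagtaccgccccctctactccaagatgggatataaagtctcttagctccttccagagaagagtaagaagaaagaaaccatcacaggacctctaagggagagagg
Prg3: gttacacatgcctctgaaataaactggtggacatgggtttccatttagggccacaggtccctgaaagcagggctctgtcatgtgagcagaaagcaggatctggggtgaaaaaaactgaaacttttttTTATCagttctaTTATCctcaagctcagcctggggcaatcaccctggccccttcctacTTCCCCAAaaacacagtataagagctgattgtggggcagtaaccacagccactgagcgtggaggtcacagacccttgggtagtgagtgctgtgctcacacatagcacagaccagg
Ear6: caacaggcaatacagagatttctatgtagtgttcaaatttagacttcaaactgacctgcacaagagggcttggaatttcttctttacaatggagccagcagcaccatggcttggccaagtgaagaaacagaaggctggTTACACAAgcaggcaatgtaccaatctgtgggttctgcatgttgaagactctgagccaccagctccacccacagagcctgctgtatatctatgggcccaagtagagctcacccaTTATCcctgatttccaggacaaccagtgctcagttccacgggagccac
Fcer1a: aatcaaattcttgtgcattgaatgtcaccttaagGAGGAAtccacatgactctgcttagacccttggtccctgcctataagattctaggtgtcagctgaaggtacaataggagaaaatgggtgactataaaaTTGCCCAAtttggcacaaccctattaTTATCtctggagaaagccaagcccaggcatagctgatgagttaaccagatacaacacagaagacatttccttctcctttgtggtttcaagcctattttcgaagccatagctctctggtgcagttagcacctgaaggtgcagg
The Epx window held none of these letters. The Prg3 window held 2 GATA matches, 123 and 111 bases before the start, and 1 C/EBP match 65 bases before it. The Ear6 window held 1 C/EBP match 112 bases before the start and 1 GATA match just after it. In the Fcer1a window there was 1 match to each motif. Of 32851 mouse promoters of the same length, 25.4% held the GATA letters, 40.7% the C/EBP letters and 28.3% the ETS letters, so single matches of this kind are common.

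The label was checked against genes that the gate did not use. Prg3 was seen in 151 of the 160 cells and Ear6 in 135, and 157 cells held a UMI of one or the other, at a median of 4189 UMIs per cell. In the other 27995 kept cells, with a median of 7942 UMIs, 1.58% held Prg3 and 0.65% held Ear6. Cells of an erythroid gate, which should lack both genes, had 0.649% and 0.616% with a UMI at a median of 14135 UMIs, which gives the level of stray RNA. Il5ra was found in 36 cells, or 22.5%, against 0.529% of the other cells and 0.259% of the erythroid gate. By group it was seen in 7 of 21 WT, 28 of 111 vehicle and only 1 of 28 IACS-70654 cells. Ccr3 and Ear10 had no UMI in any gated cell, which with 864195 UMIs in all bounds each only by the 3 UMIs that a count of 0 allows, and Siglecf was seen in 10.0% of them. A Kit UMI was found in 54 cells, or 33.8%, against 57.3% of the deeper other cells. The cells thus carried granule genes and part of an eosinophil receptor set, and lacked detectable transcripts of the late marker Ccr3.

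Gated cells carried fewer UMIs than the cells around them in every library. Their median was 4920 and 4018.5 UMIs in WT, 4342 and 3740.0 in vehicle, and 2754 and 2731.5 after IACS-70654, while all kept cells had medians of 8061 and 7810.0, 9512 and 8670.5, and 6954 and 6712. Only 31 of the 160 cells were above the median of their library, and 4, all in vehicle replicate 1, were above its 95th percentile. Because the gate counts raw UMIs, a shallow cell needs a larger fraction of Prg2 and Epx to pass. No doublet caller was run. The share of the most abundant sample tag, lower where 2 samples mix, had medians of 72.1% and 72.5% in the gated cells of the WT libraries and 74.0% and 58.6% in those of vehicle, near the 73.0% and 72.5%, and 73.0% and 59.9%, of the other cells. After IACS-70654 it was lower in the gated cells, at 65.8% and 64.1% against 77.3% and 68.9%. The part of mixed droplets in the results was not tested. No barcode was shared between any 2 of the 6 c-Kit+ libraries, 263 were shared between a c-Kit+ and a CD45+ marrow library, and 1 of these belonged to a gated cell.

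One gated cell of WT replicate 1, singled out after its values were seen, held 645 UMIs of Ighm, 575 of Igkc and 55 of Jchain among 7275, besides 156 of Prg2 and 17 of Epx. These are immunoglobulin and joining-chain genes of plasma cells, and nearly every Ighm UMI of the WT cells came from this barcode. Ratios of Ighm and Igkc are given without it, and other values include it unless stated.

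Within the gate, Prg2 ran from 6 to 490 UMIs per cell with a median of 55.5, and Epx from 3 to 75 with a median of 8. Median Prg2 was 49 UMIs in the 21 WT cells, 62 in the 111 vehicle cells and 43.5 in the 28 IACS-70654 cells, and median Epx was 5, 9 and 6. The highest single cells, with 490 Prg2 and 75 Epx UMIs, were from vehicle. Just inside the gate, 42 cells with 3 or 4 Epx or up to 7 Prg2 UMIs held 904 CPM of Prg3 and 1004 CPM of Ear6 (CPM, counts per 1000000 UMIs summed over the cells). Just outside, 49 cells with 1 or 2 Epx and enough Prg2 held 965 and 651 CPM, and 10 cells with enough Epx but fewer than 5 Prg2 held 728 and 657 CPM. A further 63 cells with 5 or more Prg2 UMIs and no Epx held 168 CPM of Prg3 and 87.7 CPM of Ear6.

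**Figure D1:**
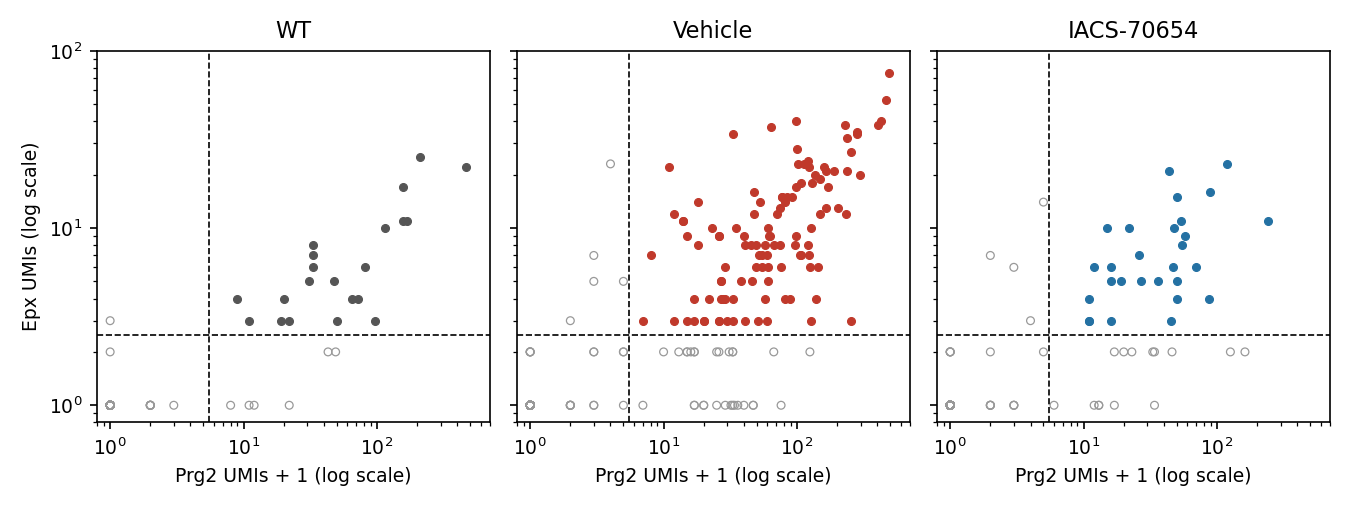
Epx UMIs (vertical, log scale) against Prg2 UMIs plus 1 (horizontal, log scale) in every kept c-Kit+ cell with at least 1 Epx UMI, by group. Filled points are the 21 WT, 111 vehicle and 28 IACS-70654 cells inside the gate (dashed lines), open points are cells outside it, and few cells have much Epx and little Prg2.

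The first comparison asked whether eosinophil progenitors take a larger share of c-Kit+ marrow in vehicle-dosed tumor-bearing mice, and whether IACS-70654 alters that share. Gated cells were more frequent in vehicle than in WT and less frequent after IACS-70654 than in vehicle, in every library. They were 13 of 3875 kept cells in WT replicate 1 (0.335%, exact 95% binomial interval 0.179% to 0.573%) and 8 of 3039 in WT replicate 2 (0.263%, 0.114% to 0.518%). In vehicle they were 82 of 6571 (1.25%, 0.994% to 1.55%) and 29 of 2836 (1.02%, 0.686% to 1.47%). After IACS-70654 they were 18 of 7517 (0.239%, 0.142% to 0.378%) and 10 of 4317 (0.232%, 0.111% to 0.426%). The lowest vehicle interval lay above the highest intervals of both other groups, and the WT and IACS-70654 intervals overlapped. Intervals cover counting error only.

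The mean share was 3.79-fold higher in vehicle than in WT (log2 ratio 1.92), and the ratio of IACS-70654 to vehicle was 0.207 (log2 ratio -2.27). In an exact two-sided permutation test over libraries both gave p = 0.333, which is the smallest p that 2 libraries against 2 allow, so neither could pass 0.05. Between IACS-70654 and WT the log2 ratio of shares was -0.35 (exact permutation p = 0.333). That small difference turned to 0.016 with the looser gate (1 Epx and 3 Prg2 UMIs) and to 0.14 with the stricter one (6 and 10), so its direction depends on the gate.

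The first 2 comparisons kept their direction at matched depth, with other gate genes and outside a neutrophil gate. The part of depth, composition and gate genes in their size was not tested. With each library thinned so that its median UMIs per kept cell matched the lowest of the 6 (6712), the counts became 12, 6, 74, 25, 18 and 10 cells in the order above, and the log2 ratios were 1.99 and -2.09. A gate on Prg3 and Ear6 instead, 1 UMI each, found 17, 6, 87, 30, 24 and 12 cells and gave 1.90 and -2.00. It is not independent of the first gate, as 151 of the 160 gated cells held Prg3 and 135 held Ear6. The neutrophil-type cells defined by 20 or more UMIs of both Elane and Prtn3 were 17.1% and 14.7% of WT, 39.1% and 36.7% of vehicle and 23.8% and 22.8% of IACS-70654 cells, and this change in the denominator lowers the share of any other cell in vehicle. Among the cells outside that neutrophil gate, the log2 ratios were 2.22 for vehicle to WT and -2.44 for IACS-70654 to vehicle. A larger share is not a larger number of cells in the marrow, which these libraries do not give.

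**Figure D2:**
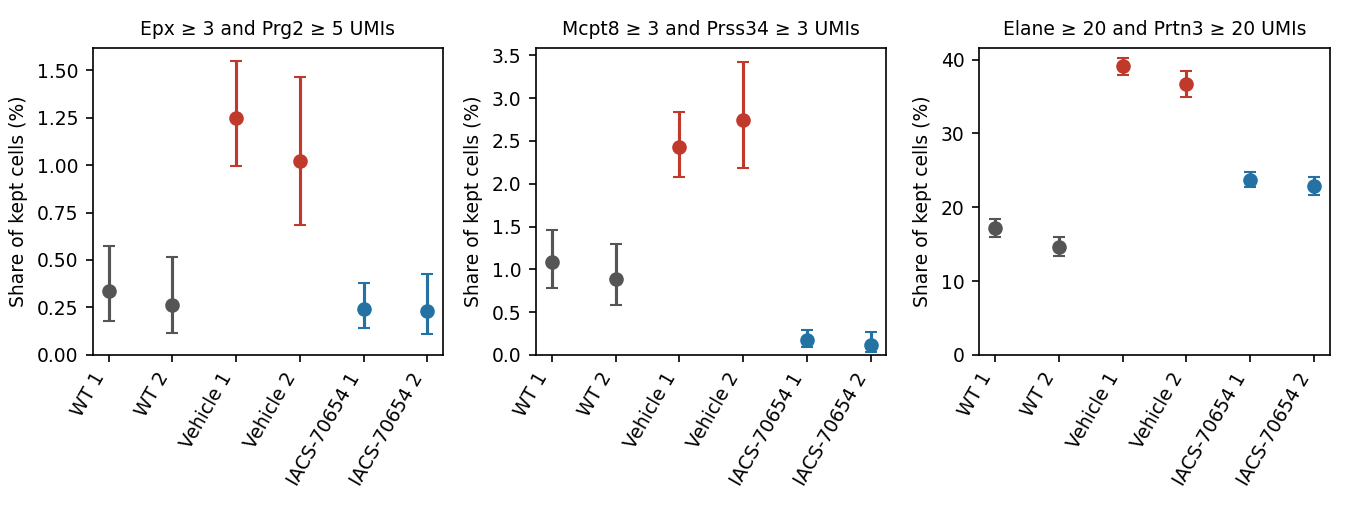
Share of kept cells (vertical, percent) inside the eosinophil gate (left), a basophil gate (middle) and a neutrophil gate (right), 1 point per library with its exact 95% binomial interval. In all 3 panels both vehicle libraries lie above both WT and both IACS-70654 libraries, and after IACS-70654 the basophil share lies below WT while the neutrophil share lies above it.

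Basophil-type cells, gated on 3 UMIs each of the basophil proteases Mcpt8 and Prss34, are the nearest granulocyte relative here and showed the same order of groups for vehicle over WT and a lower ratio after the drug. They made up 1.08% and 0.888% of WT, 2.43% and 2.75% of vehicle and 0.173% and 0.116% of IACS-70654 cells. The log2 ratio of IACS-70654 to vehicle was -4.17 for the basophil gate, 1.93 lower than for the eosinophil gate (mean of log2 ratios, exact permutation p = 0.333, the smallest possible). For the neutrophil gate it was -0.70, and the eosinophil ratio was 1.56 below it on the mean log2 scale (difference -1.56, exact permutation p = 0.333). Erythroid-type cells (10 or more Car1 and 1 or more Klf1 UMIs) were 9.25% and 8.004% of cells in vehicle, 9.78% and 8.18% after IACS-70654 and 17.0% and 16.6% in WT, with a log2 ratio of IACS-70654 to vehicle of 0.06 (exact permutation p = 0.667). None of these differences between gates could pass 0.05 with 2 libraries a group.

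Other sorts held almost no such cells. The same gate found 12 cells in the 6 CD45+ marrow libraries, 2 and 3 in WT, 3 and 0 in vehicle, and 2 and 2 after IACS-70654, of 4394 to 6154 kept cells each. The library with none, 0 of 6087 cells, allows a share of up to 0.0493% by a floor of 3 cells and 0.0606% by the exact 95% interval. In the 4 libraries of 2208L tumors, 1 each from mice given vehicle, IACS-70654, an antibody to PD-1 or both agents, of 1974 to 5064 kept cells each, no cell held a single UMI of Epx or Prg2, which allows shares of up to 0.0592% to 0.152% of cells with a UMI by the same floor, and 0.0728% to 0.187% by the exact interval.

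The genes that set the gated cells apart from the other c-Kit+ cells are described without a test, since the gate chose the cells. Of 1742 genes with at least 50 CPM in the gated cells of every library, the highest ratios after Epx, Ear6, Prg2 and Prg3 belonged to Ldhc, a testis-type lactate dehydrogenase subunit, at 213 CPM against 1.52 CPM, and Sncaip at 156 against 3.74 CPM. Next came Olr1, a lectin-like receptor for oxidized lipoprotein, at 138 against 10.3 CPM, and Arsb, a lysosomal sulfatase, at 776 against 68.8 CPM. Cebpe, the C/EBP factor of late granulocyte development, stood at 516 against 48.2 CPM, or 10.7-fold. Hdc, which makes histamine, stood at 279 against 32.4 CPM, and Cd63, a membrane protein of granules, at 1349 against 189 CPM. Syne1 and Sun2, partners that tie the nuclear envelope to the cytoskeleton, stood at 452 against 45.8 CPM and 213 against 39.7 CPM. Auts2 (875 against 128 CPM), Ikzf2 (894 against 154 CPM), Irak3 (122 against 21.5 CPM) and Mcu, the pore of the mitochondrial calcium uniporter (337 against 78.4 CPM), were also in the first 25.

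The granule genes were high in all 6 libraries. Prg3 read 1132 and 1212 CPM in WT, 1312 and 1597 CPM in vehicle, and 2271 and 1606 CPM after IACS-70654. The pooled log2 ratio of IACS-70654 to vehicle was 0.58 (counting interval 0.35 to 0.80), against -0.89 in the other cells. It rested mainly on IACS-70654 replicate 1, since replicate 2 was level with vehicle replicate 2. In cells thinned to 1500 UMIs, Prg3 was seen in 75 of 92 vehicle cells and 17 of 22 IACS-70654 cells. The IACS-70654 cells were also shallower, and the part of depth and of the gate in this ratio was not tested. Ear6 read 1103 and 1183 CPM in WT, 1376 and 1743 CPM in vehicle, and 826 and 1547 CPM after IACS-70654, and there the groups overlapped. Ear1, at 14.5 and 0 CPM in WT, 62.1 and 69.4 CPM in vehicle and 280.2 and 119 CPM after IACS-70654, rests on 66 UMIs, 23 of them in 9 IACS-70654 cells. The Ear genes are near-identical copies whose reads may be split or dropped when mapped, so values of single Ear genes are uncertain. Summed over the 7 granule genes, Epx and Prg2 included, the gated cells held 15265 to 28415 CPM and the other cells 15.9 to 35.6 CPM.

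**Figure D3:**
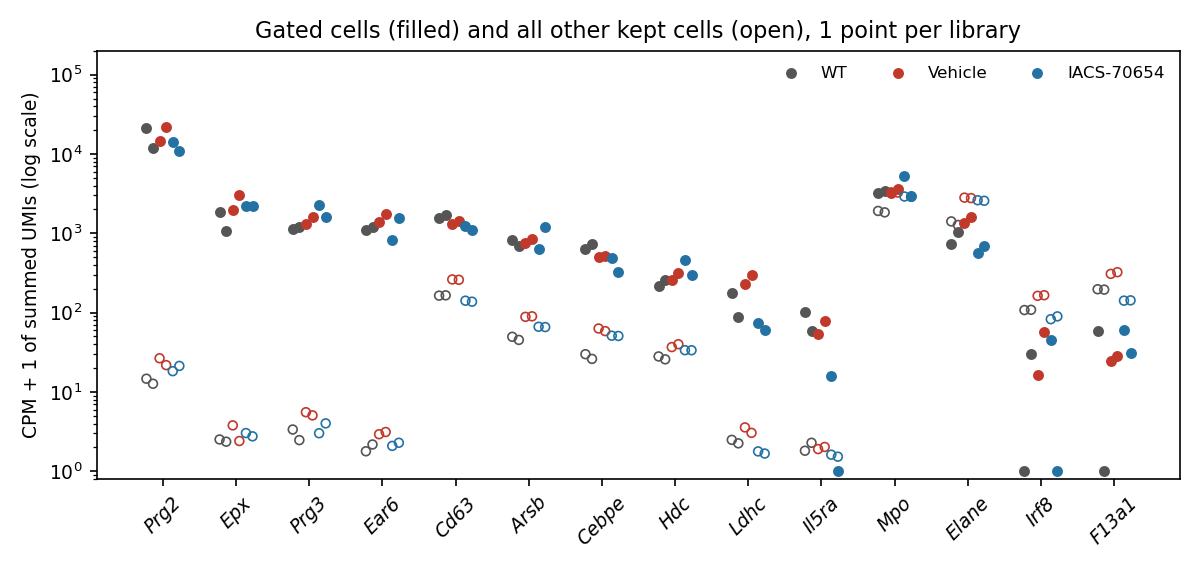
CPM plus 1 of summed UMIs (vertical, log scale) for 14 genes in the gated cells (filled) and in all other kept cells (open), 1 point per library, colored by group. Granule genes lie 2 to 3 powers of 10 apart between the 2 kinds of cell, Mpo overlaps, and Irf8 and F13a1 are lower in the gated cells.

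Among receptors and transcription factors the gated cells differed less from their neighbors. Il5ra stood at 55.5 against 0.824 CPM, and Csf2rb at 94.9 against 39.3 CPM. Trib1, a pseudokinase that sets C/EBPα levels, stood at 49.8 against 6.25 CPM, and Lmo4 at 324 against 114 CPM. Gata1 (42.8 against 30.7 CPM), Gata2 (46.3 against 52.7 CPM), Spi1, which encodes PU.1 (106 against 103 CPM), and Xbp1, the secretory stress factor that eosinophils need (61.3 against 53.5 CPM), were close in both. Irf8, the factor of monocyte fate, stood at 23.1 against 119 CPM. Of 19 transcription factor genes listed for the lineage, 11 were higher in the gated cells, and of 21 cytokine receptors 7 were. For comparison, 31.5% of all 25245 genes with a UMI and 56.3% of the 8833 genes at 10 CPM or more in either kind of cell were higher in the gated cells.

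Lists of neighboring lineages marked out what else the cells held. All 10 monocyte genes were lower in the gated cells (summed level 181 against 601 CPM), with Ly86 at 2.31 CPM and F13a1 at 28.9 against 217 CPM. Of 14 neutrophil genes 4 were higher and the sum was 8175 against 11984 CPM. Mpo, the peroxidase of primary granules, stood at 3418 against 2780.0 CPM and was found in 98.8% of the gated cells, whereas Elane stood at 1234 against 2358 CPM. Of 13 basophil and mast cell genes 8 were higher, with Fcer1a, a chain of the IgE receptor, at 231 against 28.5 CPM, Cpa3 at 244 against 109 CPM and Prss34 at 31.2 against 102 CPM. Erythroid and megakaryocyte sums were lower (531 against 1367 CPM and 288 against 570.3 CPM). Of 27 secretory pathway genes 22 were higher, led by chaperones such as Calr at 2166 against 1089 CPM, and S-phase genes were higher for 2 of 42, where 56.3% of all genes at 10 CPM or more were higher.

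As a description only, the cells were ranked by the share of their UMIs given to Prg2, which is a gene of the gate. Ranked by that share and cut into 54, 53 and 53 cells, the lowest bin held up to 1.20% Prg2 and the highest 2.67% to 9.04%, with median depths of 7445, 3091 and 2491 UMIs. Summed over each bin, Ear2 stood at 13.01, 77.4 and 202 CPM and Il5ra at 21.7, 77.4 and 114 CPM from lowest to highest. The basophil protease genes were also higher toward the top, Prss34 at 4.34, 13.7 and 120 CPM and Mcpt8 at 106, 223 and 403 CPM. Elane stood at 1579, 851 and 823 CPM, Mki67, a marker of dividing cells, at 230, 95.6 and 59.97 CPM, and Car1, an erythroid gene, at 275, 68.3 and 49.1 CPM. Just 4 gated cells, all from vehicle, held 10 or more Car1 UMIs. Cebpe (484, 573 and 529 CPM) and Kit (130, 123 and 81.8 CPM) varied less. The lowest bin is also the deepest, in part by the gate, since a cell with a very small Prg2 share can reach 5 Prg2 UMIs only if deep. The part of depth, of mixed droplets and of the unequal mix of groups in these differences was not tested. By group, 6 WT, 34 vehicle and 14 IACS-70654 cells fell in the lowest bin and 5, 43 and 5 in the highest.

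**Figure D4:**
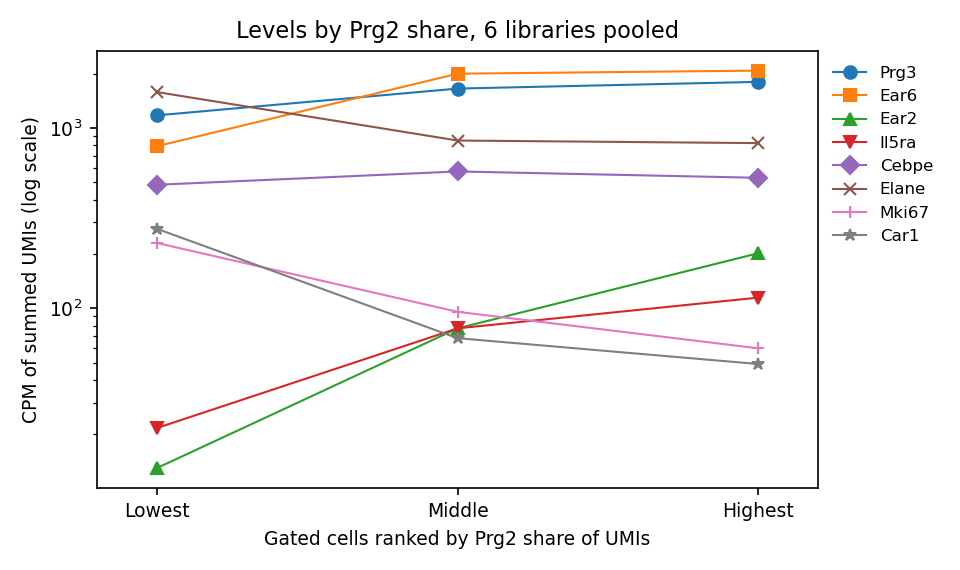
CPM of summed UMIs (vertical, log scale) of 8 genes in gated cells ranked by the Prg2 share of their UMIs and split into bins of 54, 53 and 53 cells, with 6 libraries pooled. Ear2 and Il5ra are higher toward the highest Prg2 share, Elane, Mki67 and Car1 are lower, and the bins differ in depth (medians 7445, 3091 and 2491 UMIs).

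Cell cycle genes were read at 1 depth. With kept cells thinned to 3000 UMIs and scored by the Seurat rule for S and G2M phase, 35 of the 92 gated cells deep enough (38.0%, exact 95% binomial interval 28.1% to 48.8%) were in S or G2M, against 52.0% of 25958 other cells. It was 1 of 8 and 1 of 5 in WT, 23 of 49 and 6 of 18 in vehicle, and 4 of 8 and 0 of 4 after IACS-70654. The mean over libraries was 23.9 percentage points higher in vehicle than in WT (exact permutation p = 0.333), and the other cells were also more often in these phases in vehicle (55.9% against 48.6%). After IACS-70654 it was 15.1 points below vehicle (difference -15.1, exact permutation p = 1), and without IACS-70654 replicate 2, whose 4 cells held none, it was 9.86 points above. Unthinned, 4 of 21 WT, 45 of 111 vehicle and 10 of 28 IACS-70654 cells were in these phases. Mki67 stood at 58.1 and 0 CPM in WT, 171 and 201.4 CPM in vehicle, and 177 and 149 CPM after IACS-70654, with only 4 UMIs in the WT cells.

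The second comparison was of gene levels inside the gate. Just 2 of the 6 libraries, both vehicle, had the 20 cells set as the minimum for a gene test, so none was run, and genes are described by size over 4 libraries. A gene was counted where its mean was at least 100 CPM, its pooled ratio at least 2-fold, and the libraries of the groups did not overlap. Epx and Prg2 were left out. For IACS-70654 against vehicle, 26 of 1717 genes (1.51%) were higher and 34 (1.98%) lower. The counts rest on few cells. Counts with 1 library left out are not given, since a group of 1 library meets the condition of no overlap more easily. The 2-fold count is not a count of changed genes, and the intervals given with ratios cover counting error only.

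Several of the genes lower after IACS-70654 were basophil and mast cell genes. Fcer1a read 231 and 493 CPM in vehicle, 102 and 86.6 CPM in WT and 0 in both IACS-70654 libraries. It had 190 of the 659215 UMIs of the vehicle cells and 0 of the 101421 UMIs of the 28 drug-group cells. With cells thinned to 1500 UMIs, 28 of 92 vehicle cells, 3 of 19 WT cells and 0 of 22 IACS-70654 cells held an Fcer1a UMI (unthinned, 47.7%, 38.1% and 0%). In the other c-Kit+ cells Fcer1a was also lower after IACS-70654 (8.80 against 52.8 CPM, log2 ratio -2.58). Mcpt8 (log2 ratio -2.53, interval -4.42 to -1.14, against -2.40 in the other cells) and Cpa3 (-1.55, -2.70 to -0.59, against -0.05) were lower too, though Mcpt8 had 42 of its 150 vehicle UMIs in 1 cell and a log2 ratio of -1.94 without IACS-70654 replicate 1 and -3.33 without vehicle replicate 1. The other cells are a sum that includes basophil-type cells, whose mean share was 2.59% in vehicle and 0.144% after IACS-70654. The part of this composition in the ratios of the other cells was not tested. Hdc, shared by basophils and eosinophils, read 254 and 313 CPM in vehicle and 457 and 297 CPM after IACS-70654, and overlapped. Of 13 listed basophil and mast cell genes, 5 reached a mean of 100 CPM. Of these, 4 (Mcpt8, Cpa3, Fcer1a and Srgn) met the rule as lower, against 1.98% of all genes. Mcpt8 (29.5 and 59.5 CPM after IACS-70654), Cpa3 (88.5 and 89.2 CPM) and Fcer1a reached that mean only through vehicle. The filter thus favors genes high in vehicle, and the count is not read as a result. Summed over all 13 genes, gated cells held 3447 and 4257 CPM in vehicle and 1785 and 1487 CPM after IACS-70654, most of it Srgn. The other cells held 2431 and 2461 CPM, and 1423 and 1400 CPM.

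Auts2, a transcriptional regulator of neural development, read 1132 and 895 CPM in WT, 986 and 778 CPM in vehicle, and 206 and 387 CPM after IACS-70654, a log2 ratio of -1.82 (-2.43 to -1.27). Both IACS-70654 libraries lay below all 4 others. In the other cells the log2 ratio for Auts2 was -1.09. In cells thinned to 1500 UMIs, Auts2 was seen in 54 of 92 vehicle cells and 6 of 22 IACS-70654 cells. Ifitm1, an interferon-inducible membrane protein, read 682 and 375 CPM in WT, 683 and 660 CPM in vehicle and 148 and 59.5 CPM after IACS-70654 (log2 ratio to vehicle -2.52, -3.48 to -1.70, against -1.47 in the other cells, and -3.51 without IACS-70654 replicate 1), and Ly6e stood at 177 against 589 CPM.

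Genes of lipid mediators, lineage and granules gave a mixed picture. Tbxas1, thromboxane synthase, read 145 and 346 CPM in WT, 173 and 160 CPM in vehicle, and 14.7 and 59.5 CPM after IACS-70654 (log2 ratio to vehicle -2.52, -4.82 to -0.94). The ratio rests on 3 UMIs after IACS-70654 and 112 in vehicle. Tbxas1 reached a mean of 100 CPM over these libraries only through vehicle, so the filter favors a lower ratio. Without IACS-70654 replicate 1 or 2 its log2 ratio was -1.51 or -3.53, and in the other cells it was 0.13. Runx1, a factor of early blood cell fate, read 755 and 404 CPM in WT, 1040.4 and 979 CPM in vehicle, and 266 and 744 CPM after IACS-70654 (-1.28, -1.76 to -0.83, against 0.14). Runx1 fell short of 2-fold without IACS-70654 replicate 1 (log2 ratio -0.47) and with looser or stricter gates (-0.84 and -0.88). Srgn, the granule proteoglycan serglycin, read 2337 and 2423 CPM in vehicle and 1150.4 and 952 CPM after IACS-70654 (-1.12, -1.41 to -0.84, against -0.51). Ldhc stood at 69.0 CPM after IACS-70654 against 246 CPM in vehicle (log2 ratio -1.83, against -1.71 in the other cells). Its level in the other cells was only 0.742 against 2.42 CPM. Like Tbxas1, Ldhc reached a mean of 100 CPM only through vehicle. Elane (601 against 1393 CPM) and Prtn3 (730 against 1502 CPM), neutrophil serine proteases, were lower after IACS-70654, Prtn3 by a log2 ratio of -1.04 that was -0.84 without IACS-70654 replicate 2, and Mpo (4536 against 3272 CPM) overlapped between groups. Cells with 3 or more Elane UMIs were 57.7% of the gated cells in vehicle and 17.9% after IACS-70654, against 54.7% and 38.9% of the other cells. In vehicle 15 of the 111 cells held 20 or more Elane UMIs and in the other groups none did. Among the other cells 16.2% in WT, 38.8% in vehicle and 23.8% after IACS-70654 held that many. The part of mixed droplets in the Elane values was not tested.

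Cebpe (434 against 505 CPM, log2 ratio -0.22, -0.71 to 0.24), Arsb (818 against 771 CPM, 0.09, -0.27 to 0.42) and Cd63 (1193 against 1332 CPM, -0.16, -0.45 to 0.12) were near 1-fold between IACS-70654 and vehicle, with intervals across 0. Il5ra had 1 UMI in the 28 IACS-70654 cells and 38 in the 111 vehicle cells (9.86 against 57.6 CPM, log2 ratio -2.55, counting interval -7.89 to 0.02). After thinning to 1500 UMIs Il5ra was found in 0 of 22 and 9 of 92 cells, so a difference in the interleukin 5 receptor was not resolved at this depth. Kit stood at 118 against 121 CPM. The genes of the drug's targets, Crebbp (88.7 against 141 CPM) and Ep300 (98.6 against 77.4 CPM), overlapped between the libraries of the 2 groups.

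The higher genes were fewer in UMIs. Sun2 read 261 and 260.0 CPM in WT, 149.5 and 229 CPM in vehicle, and 398 and 595 CPM after IACS-70654 (log2 ratio to vehicle 1.47, 0.95 to 1.98, against -0.05 in the other cells). Gsr, glutathione reductase, stood at 404 against 176 CPM (1.20, 0.65 to 1.73) and Alas1, the first enzyme of heme synthesis, which eosinophil peroxidase needs as its cofactor, at 454 against 199 CPM (1.19, 0.67 to 1.69). Alas1 fell short of 2-fold without IACS-70654 replicate 1 (log2 ratio 0.72), without vehicle replicate 1 (0.82) and with looser or stricter gates (0.88 and 0.99). Both were level in the other cells, at log2 ratios of -0.18 for Gsr and 0.09 for Alas1. Mcu stood at 601 against 308 CPM, just under the 2-fold mark. No list had more than 1 gene higher by the rule.

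**Figure D5:**
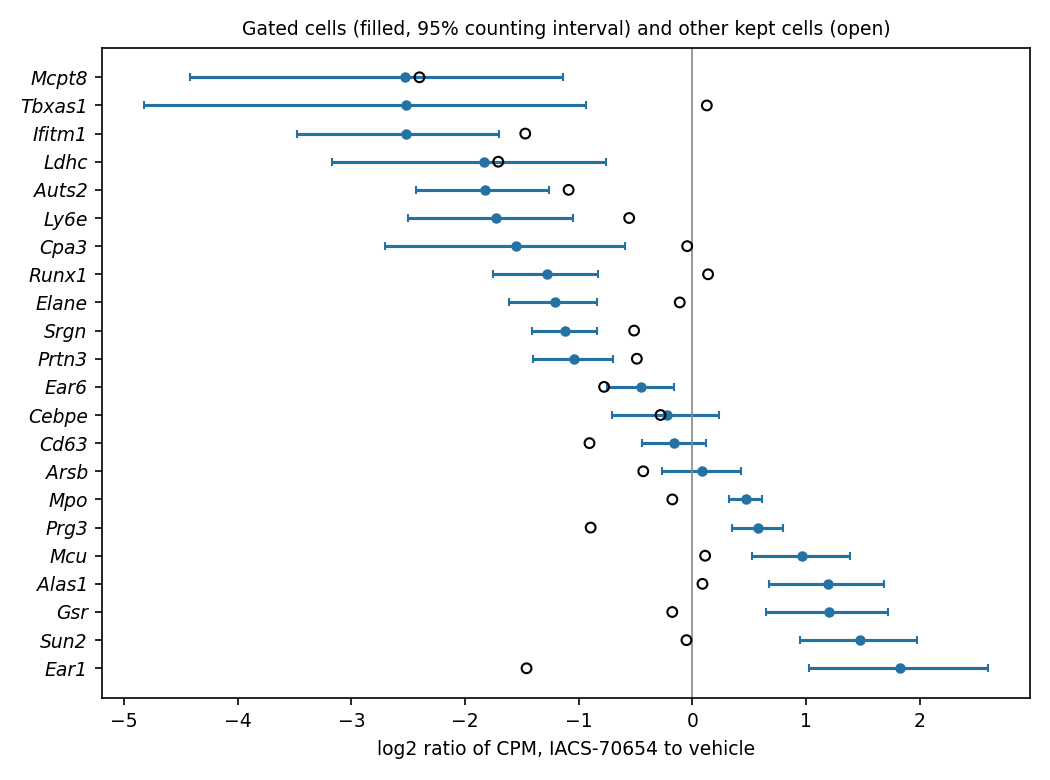
Log2 ratio of CPM, IACS-70654 to vehicle (horizontal), for 22 genes in the pooled gated cells (filled, with the 95% interval from counting error only) and in all other kept c-Kit+ cells (open). Mcpt8, Ifitm1, Ldhc and Auts2 lie left of 0 in both, Tbxas1, Runx1 and Cpa3 are near 0 in the other cells, and Sun2, Gsr and Alas1 lie right of 0 in the gated cells. The other cells are a sum over cell types whose shares differ between groups. Ldhc stood in them at only 0.742 CPM after IACS-70654 and 2.42 CPM in vehicle.

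For vehicle against WT, 30 of 1643 genes (1.83%) were higher and 18 (1.10%) lower by the same rule, on 21 WT cells and 103559 WT UMIs. Counts with 1 library left out are again not given, since no overlap is then easier to meet. Leaving out the immunoglobulin-rich WT cell gave 35 higher and 15 lower. Among the higher were 4 of 11 G2M genes at 100 CPM or more, Top2a, Cks1b, Mki67 and Tmpo, and 0 of 8 S-phase genes. Mki67 (58.1 and 0 CPM in WT) and Cks1b (43.5 and 57.7 CPM in WT) reached that mean only through vehicle. The filter thus favors genes high in vehicle, and the count is not read as a result. Summed over all 52 listed G2M genes, gated cells held 2278.5 and 3088 CPM in WT and 5736 and 5187 CPM in vehicle. The other cells held 5852 and 5784 CPM, and 6031 and 5905 CPM. The 42 S-phase genes summed to 2511 and 2424 CPM in WT and 2847 and 2923 CPM in vehicle. Top2a, which untangles DNA in mitosis, read 102 and 173 CPM in WT and 305 and 340.3 CPM in vehicle (log2 ratio 1.32, 0.51 to 2.25, and 0.85 without WT replicate 1). Fcer1a stood at 288 against 96.6 CPM (log2 ratio 1.58, and 2.35 without vehicle replicate 1). In the other cells Fcer1a was also higher in vehicle (52.8 against 23.2 CPM, log2 ratio 1.19). Cells with 3 or more Elane UMIs were 38.1% of the gated cells in WT and 57.7% in vehicle, against 31.6% and 54.7% of the other cells. Without these gated cells the log2 ratio was 0.90 for Mki67 (177 against 38.6 CPM with all cells), 0.02 for Top2a and 0.45 for Fcer1a, each then short of 2-fold. Tmpo stayed at 1.03 (1.12 with all cells). Only 8 and 5 WT cells and 36 and 11 vehicle cells were left. The Elane cut counts raw UMIs and so takes out deeper cells more readily, and the part of depth was not tested. Lower in vehicle were Olr1 (93.2 and 160 CPM against 290.3 and 375 CPM), the immediate early gene Ier2 (87.3 and 146 CPM against 348 and 346 CPM) and Ccnd2, cyclin D2 (65.2 against 193 CPM). The log2 ratio of Ier2 was -1.80 and became -0.68 without the Elane-holding cells, and without vehicle replicate 1 that of Ccnd2 went from -1.57 to -0.89 and that of Olr1 from -1.56 to just under 2-fold (-0.997). In the other cells Olr1 was higher in vehicle (log2 ratio 1.37), while Ier2 (-0.37) and Ccnd2 (-0.33) were lower. Ighm and Igkc met the rule as lower only through the one WT cell described above, and without it their log2 ratios were -0.16 and -0.25. Of the granule genes, Prg3 (log2 ratio 0.25, -0.03 to 0.53) and Ear6 (0.37, 0.09 to 0.66) were within 1.3-fold of WT, while Ear1 stood at 63.7 against 9.66 CPM on 42 and 1 UMIs.

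For IACS-70654 against WT, on 28 and 21 cells, 76 of 1667 genes (4.56%) were higher and 45 (2.70%) lower. As above, counts with 1 library left out are not given. The comparison shares its IACS-70654 libraries with the one before last and its WT libraries with the last. Auts2 (266 against 1053 CPM), Tbxas1 (29.6 against 212 CPM) and Ifitm1 (118 against 579 CPM) were lower than in WT as well as in vehicle. Leaving out 1 library at a time moved the log2 ratio to WT from -3.85 to -1.84 for Tbxas1 and from -3.28 to -1.66 for Ifitm1. Hist1h2ap, a replication-linked histone gene, read 723 and 89.2 CPM after IACS-70654 and 72.6 and 57.7 CPM in WT. Its pooled log2 ratio of 2.92 rested on IACS-70654 replicate 1 and was 0.40 without it. Cks1b stood at 168 against 48.3 CPM. Of 11 G2M genes at 100 CPM or more, 4 (Hmgb2, Top2a, Cks1b and Tmpo) were higher than in WT, and 0 of 11 S-phase genes were. Cks1b reached that mean only through IACS-70654 (43.5 and 57.7 CPM in WT), so this count is not read as a result. Summed over all 52 listed G2M genes, gated cells held 6047 and 4997 CPM after IACS-70654 and 2278.5 and 3088 CPM in WT. Of the lipid mediator genes at 100 CPM or more, 2 of 3 (Alox5ap and Tbxas1) were lower, against 2.70% of all genes. Tbxas1 reached that mean only through WT (14.7 and 59.5 CPM after IACS-70654), so the filter favors a lower ratio and the count is not read as a result. Summed over all 10 listed lipid mediator genes, gated cells held 605 and 535 CPM after IACS-70654 and 726 and 952 CPM in WT. Without the Elane-holding cells Alox5ap was not lower (log2 ratio 0.33).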

How the data were processed

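Processed matrices of single-cell RNA-seq were used. The authors made the deposited counts (UMIs per gene and cell barcode) with CellRanger 7.2.0 for marrow and the mouse build mm10 per the file headers and processing notes, from 3′ libraries multiplexed with CellPlex tags, and no later filter is evident in them. Gene positions came from GENCODE annotation of the same assembly and promoters from RefSeq. Cells with 201 to 5999 genes and at most 10% mitochondrial UMIs were kept, and the gate needed 3 Epx and 5 Prg2 UMIs. The members, gene lists and tests were chosen with earlier results of these data known. Kept cells held 26477897 to 65785731 UMIs per c-Kit+ library, and gated cells 33620 to 515205. Shares were compared by an exact two-sided permutation test over libraries, with exact (Clopper-Pearson) binomial intervals. The edgeR fits planned for genes need 20 gated cells in 2 libraries of each group and were not run. Instead UMIs were summed per library, expressed as CPM and described by a rule of size, with exact conditional binomial intervals of ratios. Named genes were drawn from the lists, the 25 with the highest ratio to other cells, and the first 12 per direction by the rule of size, and not every gene of these is reported here. Phases followed the Seurat scoring rule on cells thinned to 3000 UMIs. Scripts were tested on simulated counts. Python 3, numpy, scipy and pandas were used. Replicate numbers came from the titles. Deviations of same-numbered libraries from their group means correlated at 0.05, -0.25 and 0.02 over 8247 genes, so the numbers do not pair the libraries. Alternative gates, depths and left-out cells or libraries were tried. The settings without the cell of 20 or more Ighm UMIs, with matched median depth, the Prg3 and Ear6 gate, cells outside the neutrophil gate, the replicate block and all alternatives for gene ratios were chosen after seeing the data.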

Additional observations from a re-analysis of the deposited data

How the results depend on the processing

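The share of gated cells kept its direction for vehicle to WT and IACS-70654 to vehicle under every gate, depth and cell filter tried, with log2 ratios of 1.86 to 2.63 and -2.60 to -1.92. Leaving out 1 library gave 1.76 to 2.11 and -2.41 to -2.12. For IACS-70654 to WT it gave -0.51 to -0.16, and the looser and stricter gates reversed the direction (0.016 and 0.14). A replicate block, the mean of ratios within a replicate number, gave 1.93, -2.26 and -0.34, and changed no direction. The difference in S or G2M share ranged over left-out libraries from 17.1 to 30.7 percentage points for vehicle to WT, from -40.1 to 9.86 for IACS-70654 to vehicle and from -16.3 to 33.8 for IACS-70654 to WT.

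Counts of genes at least 2-fold apart moved by over 1.5 times with the cells used, and the cause was not tested. With the stricter gate, 49 genes were higher and 83 lower for vehicle to WT, 63 higher for IACS-70654 to vehicle and 128 lower for IACS-70654 to WT. With the looser gate, 14 were higher and 21 lower for IACS-70654 to vehicle. Without cells of 3 or more Elane UMIs, the higher and lower counts were 91 and 108, 73 and 68, and 132 and 130. Leaving out 1 library gave 25 to 121 higher and 25 to 95 lower, 33 to 179 and 32 to 129, and 68 to 250 and 61 to 147. The direction reversed for BC035044 (0.29, vehicle to WT, stricter gate), F630028O10Rik (-0.14, IACS-70654 to vehicle, without Elane-holding cells), Alox5ap (0.33, IACS-70654 to WT, without Elane-holding cells) and Ighm (0.12, IACS-70654 to WT, without the immunoglobulin-rich cell). Of the other 91 single-gene values that moved by more than the spread between libraries, none changed sign.

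TMM against RLE scaling, no filter on low counts, DESeq2, the blocked gene fit and the interaction fits were not run, because no gene fit was made with 4 of 6 libraries under 20 gated cells. The IACS-70654 group held 101421 UMIs in 28 cells, so genes under about 100 CPM rest on about 10 UMIs and smaller differences were not detectable at this depth.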
